A study of Mus musculus with 2 samples.

Results

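The gene-desert open regions described here are stretches of DNase I-sensitive chromatin that lie in no annotated gene and more than 100 kb from every protein-coding transcription start site (TSS). They were chosen by position alone. Overlapping peaks of both replicates, from the longer of the 2 peak lists of each, were merged, and a merged region counted as shared where both replicates contributed a peak. A shared region was a member if its midpoint lay in no GENCODE M21 gene body and over 100 kb from the nearest protein-coding TSS. Of 53490 shared regions, 3607 met this rule (6.74%). The others were 20636 regions within 1 kb of a protein-coding TSS, 16977 in gene bodies, 3471 intergenic regions up to 10 kb from a TSS and 8799 at 10 to 100 kb.

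The tissue was urinary bladder of female mice aged 4 days, with no treatment named, of strain B6CASTF1/J, the F1 hybrid from a cross of C57BL/6J with CAST/EiJ. The series holds 1 group with 2 biological replicates, which the labels give as differently numbered females under 1 donor identifier. No contrast between groups exists, no test was made, and the spread between the replicates may be partly technical. At protein-coding starts the tissue was checked against marker lists: a peak of each replicate lay within 500 bp of a TSS for 5 of 6 smooth muscle genes (not Actg2), 5 of 5 fibroblast genes, 3 of 4 endothelial genes, 3 of 6 urothelial genes (not Upk1a, Upk2 or Krt5), 1 of 4 neuronal and glial genes (Elavl4), and none of 4 leukocyte or 4 hepatocyte genes.

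DNase I cuts DNA where nucleosomes are displaced, which happens at promoters, at enhancers that can act on genes far away, and at sites held by the insulator protein CTCF, which anchors chromatin loops. A footprint is a short stretch inside such a site that is protected from cutting. Long intervals without coding genes often flank developmental regulators and hold enhancers for them, and in the bladder such regulators pattern the mesenchyme that becomes smooth muscle and stroma around the urothelium.

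The central 150 bp of 6 members are printed to show the kinds of sequence found, all on the plus strand of mm10 and read from the RefSeq GRCm38 assembly. Capitals mark matches of the motifs named on each line. The first 2 are the tallest members, the third is the tallest member whose NFI match lay under a footprint in both replicates, and the fourth lies at the start of Zswim6. The last pair, chosen after their values were seen, lie in regulatory elements that RefSeq records from published experiments.

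Tallest member, chr10:126511636-126511785, TFAP2: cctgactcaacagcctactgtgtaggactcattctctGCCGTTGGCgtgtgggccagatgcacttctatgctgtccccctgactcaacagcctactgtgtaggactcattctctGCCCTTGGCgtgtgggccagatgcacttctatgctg
Second tallest, chr8:20122146-20122295, CTCF, GC box and TFAP2 in this order: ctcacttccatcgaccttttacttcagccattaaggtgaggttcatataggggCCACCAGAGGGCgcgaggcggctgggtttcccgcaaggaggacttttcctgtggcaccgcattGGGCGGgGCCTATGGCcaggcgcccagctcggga
NFI member, chr1:81744690-81744839: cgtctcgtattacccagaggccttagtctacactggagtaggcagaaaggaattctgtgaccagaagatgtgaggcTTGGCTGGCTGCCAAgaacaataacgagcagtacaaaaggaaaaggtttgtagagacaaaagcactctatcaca
Zswim6 start, chr13:107890201-107890350, GC box: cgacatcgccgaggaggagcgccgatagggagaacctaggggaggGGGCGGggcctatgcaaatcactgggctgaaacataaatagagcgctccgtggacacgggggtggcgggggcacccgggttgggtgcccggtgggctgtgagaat
Hhip enhancer, chr8:80314863-80315012, TFAP2 then GLI: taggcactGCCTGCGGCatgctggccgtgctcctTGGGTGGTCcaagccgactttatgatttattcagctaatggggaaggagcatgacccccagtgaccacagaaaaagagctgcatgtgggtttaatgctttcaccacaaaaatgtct
VISTA enhancer mm641, chr15:61157631-61157780, no capitals: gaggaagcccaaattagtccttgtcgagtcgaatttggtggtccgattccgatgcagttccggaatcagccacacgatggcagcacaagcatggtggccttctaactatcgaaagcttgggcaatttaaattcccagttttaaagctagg

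Open regions were sparse in the deserts. Sequence that meets the position rule covered 747 Mb, 28.2% of the genome outside assembly gaps, and held 4.83 members per Mb. Gene bodies held 25.8 shared regions per Mb and the remaining intergenic sequence 27.02 per Mb. Desert sequence was 39.1% G and C and 44.7% soft-masked as repeats, whereas the central windows of the members had a median of 53.3% G and C and their flanks, 1 kb to either side, 44.0%. The members therefore stood out in base composition from the DNA right around them.

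Calls in the deserts were shared by the replicates less often than elsewhere. Of 18015 merged desert regions, 10223 held a peak of replicate 2 alone, 4185 of replicate 1 alone, and 20.02% were shared, against 34.2% of all merged regions. Replicate 2 also had the longer peak list, with 122870 peaks against 96518. Regions called in 1 replicate alone were low: the median height was 0.219 for regions called in replicate 1 alone and 0.204 for those called in replicate 2 alone.

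Height is the signal that the authors deposited for a peak, with no stated scale. Heights came in whole multiples of 1 step per sample, 0.00466 in replicate 1 and 0.00417 in replicate 2, so a median member stood at 84 steps in replicate 1 and 96 in replicate 2. The sources used here give no total read depth. The median height of the members was 0.391 in replicate 1 and 0.400 in replicate 2 (mean 0.396 ± 0.00645, SD, n = 2). For intergenic regions at 10 to 100 kb it was 0.652 and 0.588, for gene bodies 0.684 and 0.605, and for regions within 1 kb of a TSS 1.53 and 1.15. The order of the classes was the same in both replicates. The SD given for the members is between 2 medians alone and is no measure of precision for a region. Over all shared regions it was 0.109. In whole tissue, a low height from few open cells and one from weak opening in many cannot be told apart.

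**Figure D1:**
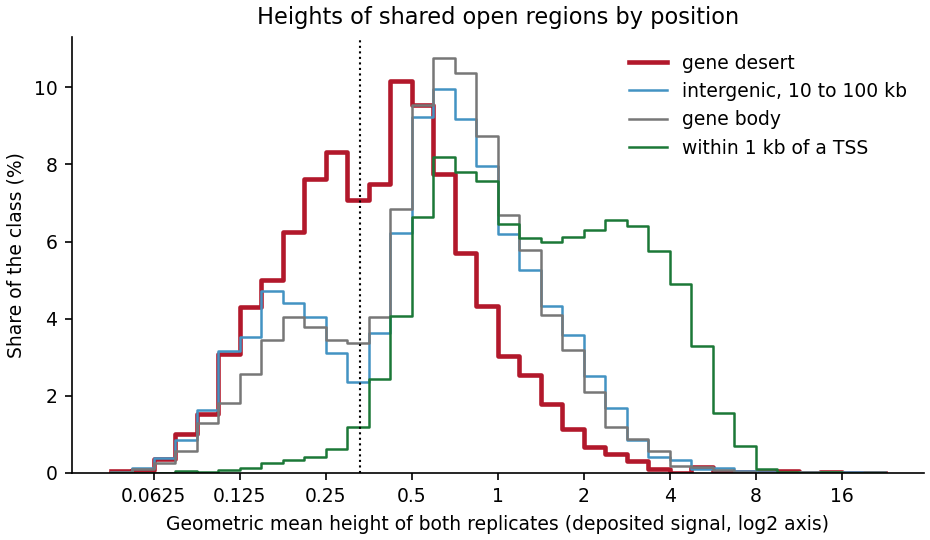
Share of each class of shared regions (vertical axis, percent) by geometric mean height of both replicates (horizontal axis, log2 scale), for gene deserts, intergenic regions at 10 to 100 kb, gene bodies and regions within 1 kb of a TSS. The desert curve has 2 humps with a shallow dip between them at 0.33 (dotted line). Below that point lie 41.8% of the members, against 27.4% of the intergenic regions at 10 to 100 kb and 2.44% of the regions at a TSS.

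Heights were compared between the replicates. Across the 3607 members, Pearson's r of log2 heights was 0.929 and Spearman's rho 0.934, against 0.966 and 0.961 over all shared regions, given as a description because all regions share the same 2 libraries. The median log2 ratio of replicate 2 over replicate 1 was 0.00 with an SD of 0.44, whereas it was -0.28 with an SD of 0.40 over all shared regions. Of the members, 96 differed by 2-fold or more, 65 of them higher in replicate 2 and 31 higher in replicate 1. Over all 53490 shared regions, 955 did, 369 higher in replicate 2 and 586 higher in replicate 1. The members thus differed somewhat more between the replicates than shared regions in general. This was not particular to deserts, since the SD was also 0.44 for intergenic regions at 10 to 100 kb. The ratio moved with height: its median was 0.20 for members under 0.25 and -0.42 for those of 2 and over. The same shift with height appeared in the intergenic regions at 10 to 100 kb, from 0.12 to -0.46.

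**Figure D2:**
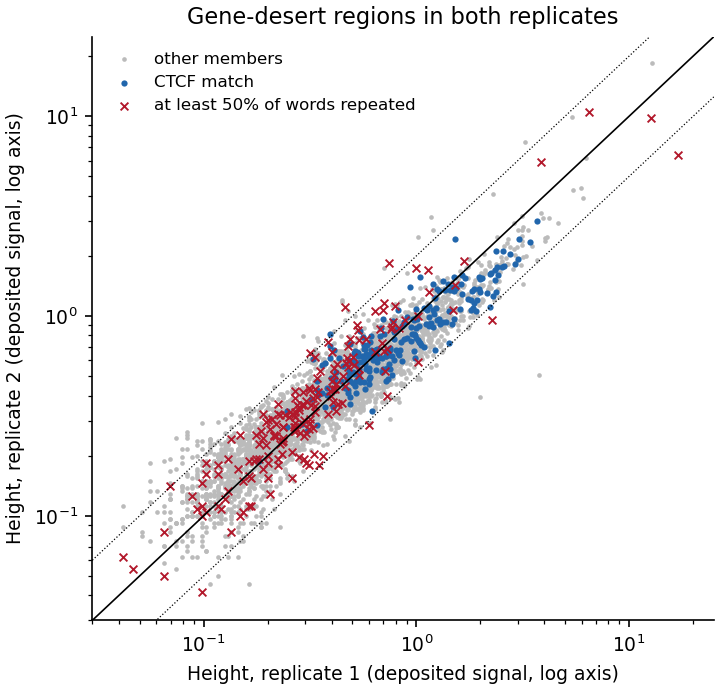
Height of each member in replicate 1 (horizontal) and replicate 2 (vertical), both on log axes, with the line of equal height and dotted lines at 2-fold. Members with a CTCF match (blue) sit mainly in the upper part of the cloud, and members with repeated sequence (crosses) spread over its whole length.

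The members were divided into a lower and a taller set at a geometric mean height of 0.33, the low point between 2 humps, read from these data. The dip between the humps of the members was shallow. At log2 heights of -2 to -1.75 lay 8.32% of the members, at -1.75 to -1.5 7.07%, and at -1.25 to -1 10.2%. The intergenic regions at 10 to 100 kb also had 2 humps, with a deeper dip. Of these, 4.73% lay at -2.75 to -2.5, 2.35% at -1.75 to -1.5 and 9.97% at -0.75 to -0.5. Both classes thus had 2 humps, but not at the same heights. The lower set had 1509 members with median heights of 0.196 and 0.221, and the taller set 2098 members with 0.610 and 0.571. A footprint of each replicate lay in 33.0% of the lower and 86.2% of the taller members. At least 50% of the central window was soft-masked repeat in 28.0% of the lower and 6.10% of the taller members. The lower set was mixed in this. The share was 11.3% of its 470 members in the 12 deserts that hold most members, and 35.6% of its 1039 members elsewhere. A CTCF match was found in 6 lower and 228 taller members. The sets thus differed in repeats, footprints and CTCF matches. Footprints come from the same libraries as the heights that made the split, so their difference is no independent support for 2 kinds of member.

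The shorter of the authors' 2 peak lists of each replicate is called stricter here, for its length alone. Its criterion was not stated, and its calls did not follow height. A peak of the stricter list of each replicate lay in 1497 members (41.5%), against 61.7% of all shared regions. That share was 54.3% for members under 0.25, fell to 6.18% at 0.35 to 0.5, and was 99.6% at 1 to 1.5. Intergenic regions at 10 to 100 kb had the same dip, from 66.6% under 0.25 to 13.2% at 0.35 to 0.5. Footprints did follow height: they were present in both replicates in 2307 members (63.96%), against 79.2% of all shared regions, and the share rose from 25.02% under 0.25 to 99.1% at 1 to 1.5.

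**Figure D3:**
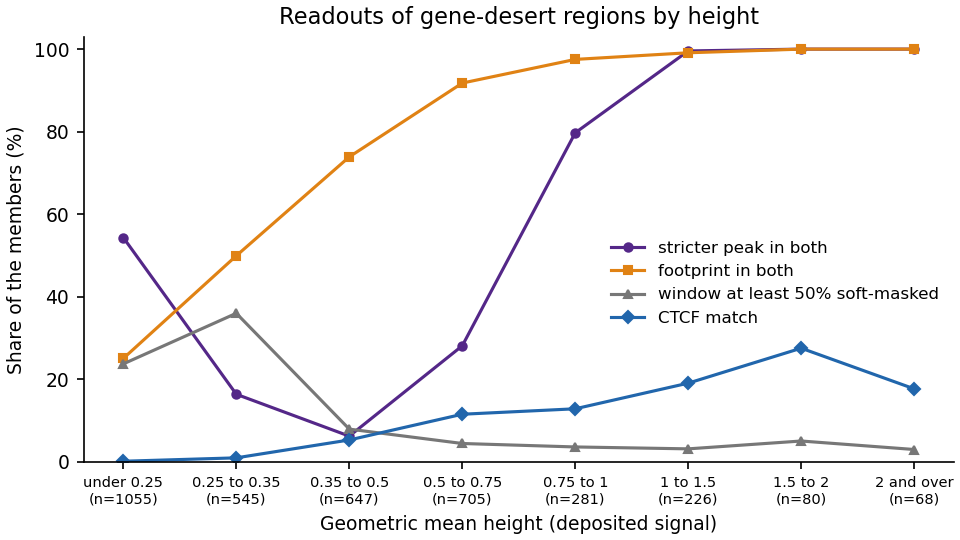
Share of the members (vertical axis, percent) with a stricter peak in both replicates, a footprint in both, a window at least 50% soft-masked, and a CTCF match, by geometric mean height (horizontal axis, number of members under each interval). The stricter call is common at both ends and lowest, 6.18%, at 0.35 to 0.5, while footprints rise throughout.

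The low members with stricter calls sat in dense blocks. Taking members that follow each other within 5 kb as a block, 65 blocks held at least 5 members each. They held 830 members (23.0%) on 661 kb in all, and 93.7% of these were of the lower set, against 26.3% outside the blocks. A stricter peak in both replicates was present for 71.2% of the block members and 32.6% of the others. A footprint in both was present for 35.8% of the block members, and only 2 of the 830 had a CTCF match. The block definition was chosen after the heights were seen.

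The fullest block lay between Trpc7, a cation channel gene, and Spock1, a matrix proteoglycan gene, at chr13:57054841-57093280. It packed 43 members into 38.4 kb, all of the lower set, with median heights of 0.135 and 0.163. A block of 40 members lay between Sh3bp4 and Agap1 at chr1:89272981-89302111, again all lower and with the same medians of 0.135 and 0.163. Between Prox1, a homeobox gene of lymphatic endothelium, and Rps6kc1, 33 members, 32 of them lower, filled chr1:190652001-190672651. None of these 3 blocks held a CTCF match, and at least 50% of the words were repeated in 3, 2 and 0 of their members. In contrast, a block of 7 members on 4.98 kb between Npvf and Nfe2l3 held no lower member, and its median heights were 1.29 and 0.892.

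Counted by interval between neighbouring protein-coding TSSs, members were concentrated in a few deserts. Of 1861 such intervals with desert sequence, 993 held a member and 348 of them held 1. The 12 fullest held 534 members (14.8%) in 1.12% of the desert sequence. In these 12, 88.0% of the members were of the lower set, against 33.8% elsewhere. The 470 lower members there had a median distance of 0.51 kb to the nearest other member, and those elsewhere 14.6 kb.

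The fullest desert, between Tbc1d22a and Fam19a5 on chromosome 15, held 68 members, and the next interval, from Fam19a5 to Zdhhc25, held 66. Fam19a5 encodes a secreted chemokine-like protein. Prox1 to Rps6kc1 held 54, Trpc7 to Spock1 51, and Cdh26 to Cdh4, a pair of cadherin genes, 48. Plekhb2 to Hs6st1 held 44 members, Sh3bp4 to Agap1 43, Ywhaq to Gm10330 35 and Nphp4 to Ajap1 34. Mki67 to Mgmt held 33, Enc1 to Gm10260 30 and Fut8 to Gm6657 28. Median heights in the 12 ran from 0.135 to 0.191 in replicate 1 and from 0.163 to 0.238 in replicate 2, so the medians were low in each. Ywhaq to Gm10330 differed from the others in its repeats, with 15 of 35 members in which at least 50% of the 36-base words of the central window occur again in the genome.

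Other deserts were rich in taller members, and these were picked after their heights were seen. Npvf to Nfe2l3, the interval that holds the microRNA gene Mir148a, had 17 taller members of 21, with median heights of 1.29 and 0.876 for those 17. Med13l to Tbx3 had 16 members, all taller, with medians of 0.694 and 0.634. Tbx3 is a T-box transcription factor of organ and limb mesenchyme. Rad51b to Zfp36l1 had 14 taller members of 18, with medians of 0.827 and 0.684. Gm5148 to Ankrd50 had 13 of 19, at 0.903 and 0.717, and Kif2a to Smim15 had 12 members, all taller, at 0.743 and 0.588. Zswim6, which RefSeq classes as protein-coding, starts inside Kif2a to Smim15. Members of 6.30 and 6.16, the tallest of this interval, and of 2.70 and 2.42 lay at 197 and 577 bp from that start. None of the taller members in these 5 had 50% or more of its words repeated. By number of taller members 2 intervals with repeated sequence ranked among them. The one from the start of chromosome 16 to Olfr161 had 16 of 20, of which 6 were repeated in this way, at 0.447 and 0.555. Gm31371 to Gm15319 on chromosome 8 had 15 of 15, of which 13 were repeated, at 0.764 and 0.871. Mki67 to Mgmt, among the 12 fullest deserts, also had 12 taller members, of 33, at 0.554 and 0.661. The fullest deserts and those rich in taller members thus overlapped.

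**Figure D4:**
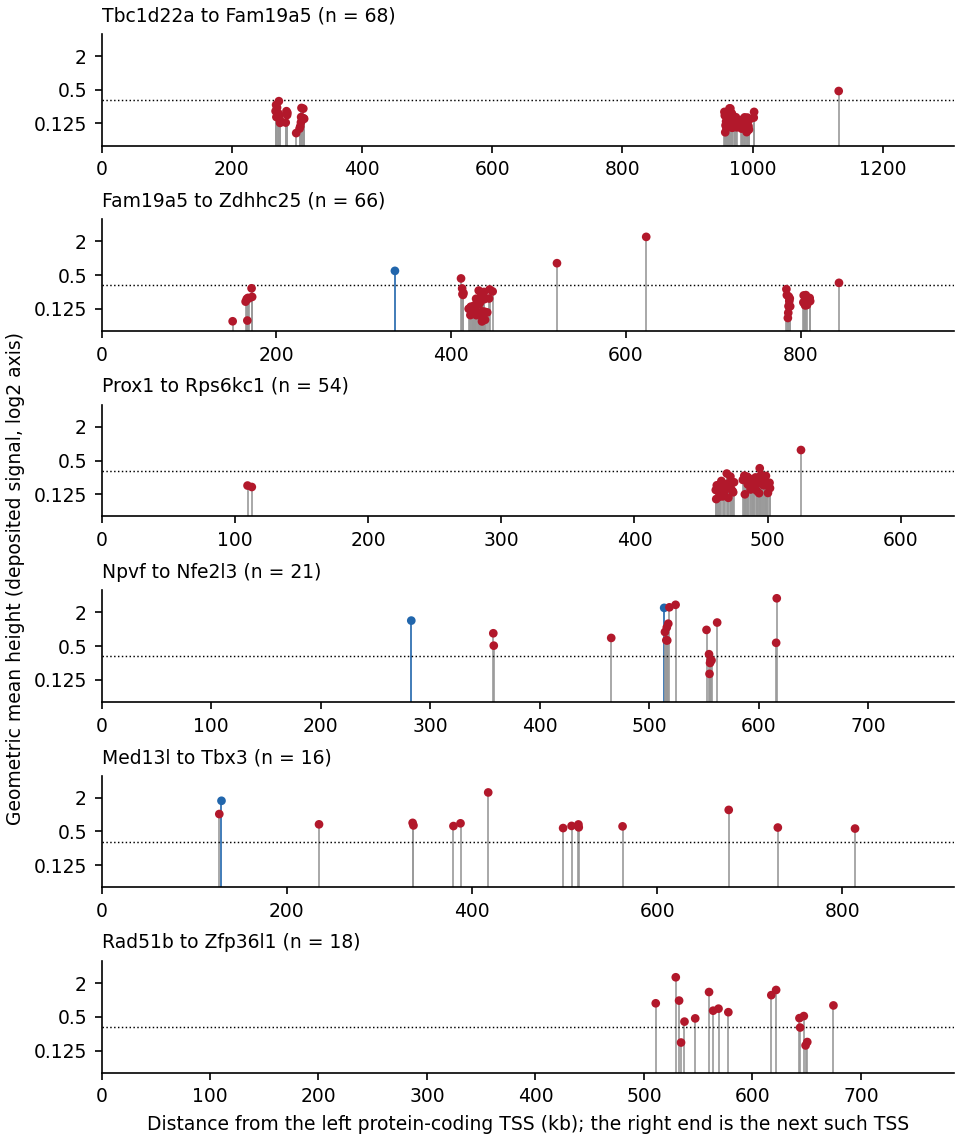
Members along 6 gene deserts, from the left protein-coding TSS (0 kb) to the next one (right end), with geometric mean height on a log2 axis, members with a CTCF match in blue, and the height of 0.33 as a dotted line. The upper 3 deserts hold 54 to 68 members in tight, low blocks, and the lower 3 hold 16 to 21 members mostly above the line, in Npvf to Nfe2l3 with 7 of them on 4.98 kb.

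The tallest member, chr10:126511601-126511820 between Lrig3 and Atp23, reached 12.9 in replicate 1 and 18.4 in replicate 2. It lay 390 kb from the nearest coding TSS and held 3 footprints in replicate 1 and 5 in replicate 2. The printed sequence contains a tandem copy of part of itself: at 10 of the 115 positions, the word of 36 bases recurs 77 bp apart within the window. In all, 12.2% of its words are repeated in the genome, none of them at another locus. Both copies carry a TFAP2 match.

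The second tallest, chr8:20122141-20122300, reached 12.6 and 9.76 and is the member printed with CTCF, GC box and TFAP2 matches under footprints of both replicates. It lay 163 bp from the start of the processed pseudogene Gm21769. Its words recur at 5 other loci, all on chromosome 8 within 1 Mb, and 73.0% of them are repeated. The third, chr3:5860361-5860530, was 17.0 in replicate 1 but 6.43 in replicate 2. All of its words are repeated, with a median of 7 copies, and they occur at 18 other loci on several chromosomes. The sequence resembles 28S ribosomal RNA, which the assembly used holds only in part, so the likeness was not tested, and signal from this site cannot be told apart from signal of such copies. Where words are repeated, the height depends on how reads that match several places were treated, and this was not stated in the labels or headers.

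A pair of tall members stood at one end of chromosome 18, at chr18:3004781-3004980 with 6.47 and 10.5 and at chr18:3005201-3005380 with 3.24 and 7.40. Their words recur at 6 and 5 other loci. On chromosome 1 between Ddx18 and Dpp10, chr1:122357121-122357300 had heights of 5.41 and 9.97, and words of it recur at 2 other loci. In all 3 of these, replicate 2 was the higher one.

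The remaining 4 of the 10 tallest had their higher value in replicate 1. The member chr13:107890101-107890420 had 6.30 and 6.16, chr15:68363201-68363500 had 5.96 and 4.38, chr1:7397821-7398040 had 6.06 and 3.92, and chr1:102628161-102628320, between Cntnap5b and Cdh20, had 5.45 and 4.30. The first 3 of these lay within 1 kb of the start of an annotated gene that GENCODE does not class as coding: Zswim6 at 197 bp, the lincRNA Gm20732 at 175 bp and the lincRNA Gm26901 at 62 bp. They had no repeated word, and at 62.0% to 71.3% G and C with 12 to 18 CpG sites in 150 bp they were richer in both than the median or mean member (53.3% and 3.27). The fourth lay 2140 kb from the nearest coding TSS, the greatest distance among the 10, and its words recur at 6 other loci. In all, 7 of the 10 tallest held a repeated word, the tallest of them only at its own locus.

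Annotation thus decides some memberships. Zswim6 is a processed transcript in GENCODE M21 but protein-coding in RefSeq, and the same holds for Trerf1, a transcriptional regulator gene, which has 2 members on one side of its start, of 3.02 and 2.69 at chr17:47139801-47140100 and of 0.861 and 1.205 at chr17:47140281-47140820. In all, 21 members lay within 1 kb of a RefSeq protein-coding start, 154 within 100 kb of one, and 40 in the body of a RefSeq coding gene. Leaving out all 167 that met either of the last conditions gave a mean median height of 0.391.

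Starts of genes outside the protein-coding class were a small part of the members. Within 1 kb of a TSS of another GENCODE gene lay 155 members (4.30%), 82 of them at lincRNAs and others at segments of immune receptor genes (6 T cell receptor and 5 immunoglobulin variable segments and 2 immunoglobulin constant ones), and 173 lay within 1 kb of a RefSeq gene start. The 155 had median heights of 0.577 and 0.517 and a mean of 6.11 CpG sites in the central window. The 3377 members over 1 kb from both kinds of start had 0.373 and 0.388, and 3.09 CpG sites. A RefSeq gene body, mostly noncoding, covered 491 members (13.6%).

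Distance from genes went with height. The median distance to the nearest coding TSS was 205 kb and the longest 2496 kb, for chr14:91389740-91389920 between the protocadherin genes Pcdh20 and Pcdh9, with heights of 0.261 and 0.158. At 100 to 150 kb, 1060 members had median heights of 0.470 and 0.446, and 49.1% had a stricter peak in both replicates. At 500 to 1000 kb, 324 members had 0.296 and 0.329, and 17.9%. Beyond 1000 kb, 93 members had 0.256 and 0.296, and 11.8%. Both replicates gave lower medians at the far end than at the near end, but the intervals between did not fall steadily: 150 to 200 kb had 0.405 and 0.419, and 200 to 300 kb 0.419 and 0.421.

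The limit of 100 kb cuts through regions of many heights. Just beyond it lay chr2:146612281-146612420 (1.17 and 0.926), chr13:73160301-73160640 between the Iroquois homeobox genes Irx2 and Irx4 (2.23 and 1.11), and chr15:36901892-36902073 (0.535 and 0.463), at 100.01, 100.01 and 100.05 kb. Just inside it, at 99.9 kb each, lay chr4:3067161-3067580 (0.335 and 0.363), chr17:3014781-3015340 (0.144 and 0.121) and chr7:109274901-109275220 (0.130 and 0.233).

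Members were unevenly spread over the chromosomes. Chromosome 15, with both Fam19a5 deserts, had 8.92 members per Mb of desert and the lowest autosomal median height, 0.235. Chromosome 9 had 7.79 per Mb and chromosome 13 had 7.63, while chromosome 19 had 2.78 and the X 2.94. On the X, 43 of 162 members (26.5%) had at least 50% of their words repeated, against 5.10% of all members. The Y held 14 members, 13 of them repeated in this way, although the labels give both mice as female.

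CTCF matches separated the members from their surroundings most clearly among 29 motifs searched on both strands. CTCF was matched in 234 members (6.49%), near the 7.15% of all shared regions but below the 11.5% of intergenic regions at 10 to 100 kb, and in 0.0832% of the windows 1 kb to either side. Of the 234 matches, 210 (89.7%) lay under a footprint in both replicates, a little below the 95.8% of the matches in all shared regions. Members with a match had median heights of 0.761 and 0.711, those without 0.359 and 0.379. The share of members with a match rose from 0.0948% under 0.25 to 27.5% at 1.5 to 2, and was 17.6% at 2 and over.

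NFI, the nuclear factor I site TTGGC and GCCAA with 5 bases between, was found in 7 members and 1 flanking window. Of these 7 matches, 6 lay under a footprint in both replicates, against 88.1% of 67 in all shared regions. The printed NFI member, chr1:81744661-81744860 between Nyap2 and Gm9747, had heights of 0.610 and 0.492. NFI and CTCF were the motifs of the 29 with over 50% of their matches in members under footprints.

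GC boxes, GGGCGG, bound by SP and KLF factors, were found in 314 members (8.71%), against 1.72% of the flanks and 26.4% of all shared regions, which include the promoters. TFAP2 sites, GCC and GGC with 3 bases between, were found in 258 members (7.15%), against 2.27% of the flanks and 11.8% of all shared regions. In intergenic regions at 10 to 100 kb the share was 11.1% for the GC box and 7.63% for TFAP2, above the members in both. TFAP2 factors act in epithelia such as the urothelium. CTCF, NFI, the GC box and TFAP2 were the 4 motifs with over 3 times the share of the flanks. Footprints of both replicates covered 24.8% of the GC box and 14.3% of the TFAP2 matches, below the 43.0% and 25.3% in all shared regions.

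The E-box CAGCTG, bound by basic helix-loop-helix factors, occurred in 577 members (16%). It was found in 5.93% of the flanks, 13% of all shared regions and 14.5% of intergenic regions at 10 to 100 kb. The AP-1 site, TGACTCA or TGAGTCA, bound by JUN and FOS proteins, occurred in 135 members (3.74%), against 2.51% of the flanks and 3.37% of all shared regions. The members were below the intergenic regions at 10 to 100 kb, with 4.57%. Of the AP-1 matches in members, 6.34% lay under a footprint of both replicates, against 8.83% in all shared regions. The homeodomain core TAATTA went the other way, with 1.39% of the members and 5.06% of the flanks. In all, 13 of the 29 motifs were less common in the members than beside them. The flanks were poorer in G and C, so part of such a difference can follow base composition, which was not tested.

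**Figure D5:**
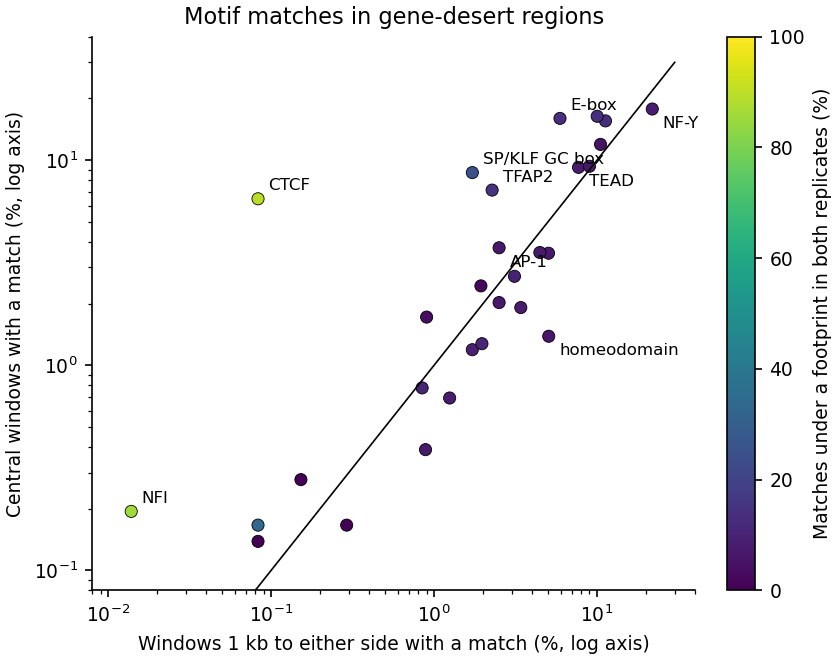
Each point is 1 of 29 motifs, with the share of flanking windows (horizontal) and of central windows (vertical) that hold a match, both in percent on log axes, coloured by the share of matches under a footprint in both replicates. CTCF and NFI lie far above the line of equal shares and are the lightest points, at 89.7% and 85.7%.

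Recorded enhancers were overlapped less often in desert sequence than over the whole genome. Deserts also held fewer open regions per Mb, and the part of this in the difference was not tested. RefSeq records 1015 enhancers tested in experiments, of which 20.8% were overlapped by a shared region. Of the 109 with their midpoint in desert sequence, members overlapped 10 (9.17%). In all, 13 members overlapped 11 enhancers, 10 of them from VISTA, a collection of elements tested in mouse embryos. The members named here were chosen for this overlap.

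The tallest of the 13 was chr15:61157601-61157800, printed above, with 4.12 in replicate 1 and 2.49 in replicate 2. It overlapped VISTA enhancer mm641, recorded as active in the midbrain. The member lay 235 kb from the TSS of A1bg and 828 kb from that of Myc, a growth regulator. It also lay 168 bp from the start of the lincRNA Gm38563. Mm1696, between Bbs9 and Bmper, a gene for a BMP-binding protein, held a member of 1.76 and 1.93. Mm308, recorded as active in the heart, held a member of 1.09 and 1.40. That member lay 266 kb from the TSS of Jun, an AP-1 subunit gene, and 240 kb from that of Fggy. In Rad51b to Zfp36l1, mm1699 held a member of 1.31 and 1.14, and mm1359 held a pair of 0.531 and 0.425, and of 0.317 and 0.329. None of these records names the bladder.

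The remaining enhancer responds to Hedgehog signalling and lies about 257 kb from Hhip, the gene of a membrane protein that binds and limits Hedgehog ligands. Hedgehog from the urothelium is a known signal to the bladder mesenchyme. A pair of members overlapped it, chr8:80314843-80315046 with 0.326 and 0.459, and chr8:80315421-80315620 with 0.754 and 0.530. The printed sequence of the first holds 1 of 5 exact matches of the GLI site among all members, GLI being the transcription factors of this pathway. No GLI match in a member lay under a footprint in both replicates.

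Genes next to the deserts were read by list. Each member was credited to the protein-coding gene on either side, so a desert counts for both. Distance played no part, so a credited member can lie far from the named gene and nearer to the other one. Of 21911 protein-coding genes, 3028 (13.8%) bordered desert sequence, and 58.5% of these had at least 1 member beside them. The bordering desert sequence had a median of 211 kb a gene over all genes, and the lists differ in it, so it is given with each; its part in the counts was not tested.

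Transcription factors of the mesenchyme and of organ patterning often bordered deserts, 58 of 82, with a median of 493 kb. Of the 58, 46 (79.3%) had a member. Tshz1 had 20 members, 4 of them taller, and its paralogue Tshz3, known in ureter smooth muscle, had 14, of which 11 were taller. The tallest beside Tshz3 was chr7:37357761-37357960 with 3.48 and 2.25. Tbx3 had 16 members, the tallest at chr5:119167841-119168060 with 2.68 and 2.32, and Runx1 had 16, 8 of them taller, with a tallest of 1.15 and 0.813.

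Urothelial genes bordered deserts in 8 of 30 cases, with a median of 242 kb, and all 8 had a member. Gata3, a transcription factor of urothelial differentiation, had 10 members with median heights of 0.391 and 0.425. Tfap2c, an epithelial TFAP2 factor, had 8 members, all taller, with medians of 1.45 and 1.03. The tallest of them, chr2:172831181-172831380, had 3.03 and 2.43. Tfap2c shares this interval with Bmp7, a secreted BMP ligand, so the same 8 members count for both. Foxa2 had 4 members and Grhl2, a regulator of epithelial junctions, 2, with a tallest of 2.02 and 1.43.

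Of 25 smooth muscle genes, 4 (16%) bordered deserts, near the share of all genes, with a median of 947 kb, and all 4 had a member. Myocd, the coactivator that switches on smooth muscle genes with SRF, had 4, all taller, with median heights of 0.673 and 0.536. Mef2c had 3, also all taller, at 0.396 and 0.801. The tallest of them, chr13:81944141-81944300, lay 152 kb from its nearest coding TSS, while Mef2c starts at chr13:83504034. Chrm3, the muscarinic receptor through which the bladder contracts, had 2, at 0.407 and 0.507. Dmd had 1 of 0.200 and 0.267. Of these 10 members the one beside Dmd belonged to the lower set and the others to the taller one.

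Secreted signals of the mesenchyme bordered deserts in 37 of 60 cases, with a median of 187 kb, and 30 (81.1%) had a member. Beside Bmp7 these were Bmp2 with 7, Cxcl12, a chemokine, with 7, and Slit2, a guidance cue, with 6. The tallest beside Bmp2, chr2:133113781-133113980, had 1.36 and 0.855. Matrix genes bordered deserts in 13 of 30 cases, with a median of 244 kb, and 9 (69.2%) had a member. Dcn, the proteoglycan decorin of fibroblasts, had 10, all taller, with medians of 1.13 and 0.736 and a tallest of 4.04 and 2.46 at chr10:97313041-97313240. Has2, a hyaluronan synthase, had 8, and Col12a1 and Thbs2 had 5 each.

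Neuronal adhesion and synapse genes bordered the longest deserts of the lists, with a median of 2227 kb. Of 58 that did, among 63, 55 (94.8%) had a member. Cdh4 had 48, of which 8 were taller, with medians of 0.135 and 0.200, and Pcdh7 had 12, of which 3 were taller, with 0.256 and 0.315. Flrt2 had 13, of which 7 were taller, and Cntnap5b 12, of which 3 were taller. A taller member lay beside 45 of the 58 genes (77.6%), against 50.5% of all protein-coding genes that bordered deserts. Of 25 housekeeping genes, 1 bordered a desert, Ywhaz, with 5.105 kb of desert sequence and 1 member of 0.535 and 0.463.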

How the data were processed

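DNase-seq of 2 bladder samples was available, with 2 peak lists, a list of false discovery rates and a footprint list each, all on mm10 per the file headers and labels. Peak height is a signal that the authors deposited without a stated scale. The p-value columns that the authors deposited hold a false discovery rate, a q-value for each run of bases, up to 0.05, and, in the footprint lists, 0.01 throughout. The sources used here name no aligner, peak caller, footprint caller or read filter, and no treatment of reads that match several places. Nor do they state the criterion that separates the 2 peak lists.

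Peaks overlapping by at least 1 bp were merged, and the tallest peak gave a region's height in each replicate. Every TSS of each GENCODE M21 transcript counted. Motifs were matched as consensus strings in the central 150 bp, centred on the mean of the centres of the tallest peaks. Each 36-base word of that window was counted in the genome on both strands. Python 3.11.15, numpy 2.4.6, pandas 2.3.3, scipy 1.17.1, numba 0.67.0 and matplotlib 3.10.9 were used. Merging, placing, word counting and motif search were tested on simulated data.

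The members and gene lists were chosen with earlier results of these data known. Named by rule were the 10 tallest members, the 3 on either side of the limit, for each motif over 3 times its flanks the tallest member with a footprinted match, the 12 fullest deserts, and the 4 genes per list with most members. No tests were made, since 1 group of 2 samples gives no contrast. Alternatives were the stricter lists, a larger overlap, other distances, all TSSs, the peak centre in place of the midpoint, no repeated sequence, each replicate alone and, chosen after seeing the data, without the fullest deserts or members near RefSeq coding genes.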

Additional observations from a re-analysis of the deposited data

Results flagged for a closer look

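Signal in desert sequence also appeared outside the regions shared by both replicates. Of the 4185 desert regions called in replicate 1 alone, 323 (7.72%) held a stretch listed at a false discovery rate of up to 0.05 in replicate 2. Of the 10223 called in replicate 2 alone, 394 (3.85%) held such a stretch in replicate 1. These had median heights of 0.265 and 0.288, against 0.214 and 0.204 for the single-replicate regions without one.

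Some footprints lay in desert sequence but in no merged region, 614 of 10289 in replicate 1 (5.97%) and 867 of 13871 in replicate 2 (6.25%). Members held 6337 and 5704 of the desert footprints, and regions called in 1 replicate alone held 3338 and 7300. The series has no control sample.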

How the results depend on the processing

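No paired analysis was possible because the series holds 1 group. A value counted as moved if it left a margin set around the main value. For shares and density the margin was a 95% interval over regions, which are not replicates. For height it was the SD between the 2 replicate medians, 0.00645, a narrow margin, and for the number a fixed fold. Placing regions by the mean peak centre or requiring an overlap of 50% of the shorter peak moved no value beyond its margin. Leaving out repeated sequence moved only the density, to 4.58 members per Mb. Results below follow the order number of members, their percent of shared regions, density per Mb, median height, and percent with a stricter peak, a footprint, a CTCF match and an AP-1 match, where moved. The stricter lists left 1504 members, 4.514% of shared regions, 2.01 per Mb, height 0.562, footprint 70.2% and CTCF 9.04%. A limit of 50 kb gave 6030, 11.3%, 6.44, 0.447, stricter peak 46.0% and footprint 66.9%. A limit of 200 kb gave 1839, 3.44%, 3.47, 0.365, stricter peak 34.5% and CTCF 5.66%. Counting the TSSs of all GENCODE genes left 577 members, 1.08%, 3.19 per Mb, height 0.366, stricter peak 33.1% and AP-1 2.60%.

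With a single replicate, the number ranged from 7874 (without replicate 2) to 13965 (without replicate 1), the percent from 8.43% to 11.6%, the density from 10.5 to 18.7 per Mb, and the median height from 0.234 to 0.261. The stricter-peak share ranged from 42.3% to 45.1%, footprints from 53.3% to 60.8%, CTCF from 2.03% to 3.28% and AP-1 from 3.25% to 3.71%. The count and density under 1 replicate rest on the construction, since a call in the other was not required. The percent was then of all regions of that replicate, and stricter peaks and footprints were required in it alone. Without the 12 fullest deserts the height was 0.445, with stricter peaks in 36.3%, footprints in 68.2% and CTCF in 7.35%. Without members near RefSeq coding genes no value moved beyond its margin. For the other moves the cause was not tested. With 2 samples and unknown read depth, the precision of a height is known only from its steps.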
